A study of Homo sapiens with 12 samples.

Results

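The ZNF genes examined here encode zinc finger proteins with a numbered ZNF symbol. They were chosen by symbol, ZNF plus a number with or without a final letter, and selected on a measured value, a mean level over the 12 libraries of at least 5 CPM (the count as a share of the library total, scaled to a fixed sum). That gave 253 genes of the 24180 symbols in the tables. Of 447 ZNF symbols, 194 lay below the cutoff, and 144 of those still had enough reads to enter the test. Just inside the cutoff were ZNF101 at 5.07, ZNF30 at 5.10 and ZNF100 at 5.12 CPM. Just outside were ZNF595 at 4.9968, ZNF34 at 4.98 and ZNF765 at 4.98 CPM.

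The cells were 143B, an established human osteosarcoma line labelled wild type (WT), sequenced as RNA in 4 groups of 3 libraries. The groups are M-BSG-Hot, which the titles equate with 5-MNP-BSG (+) of the article, M-BSG (5-MNP-BSG), BSG, and NC (Control). The series title concerns a borosilicate bioactive glass and magnetic hyperthermia, and the first 3 are called the BSG-named groups below. All 12 samples, NC included, carry the same treatment text, which names the magnetothermal material and an alternating magnetic field, so the labels do not state the material, field, dose or time of each group. Separate cultures are not mentioned for the libraries of a group, so the p-values reflect the spread between libraries alone, and that spread may be technical.

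Most ZNF proteins bind DNA through tandem C2H2 fingers, short loops in which a pair of cysteines and a pair of histidines hold a zinc ion. Many also carry a KRAB box, which recruits TRIM28 (KAP1) and, through it, the histone methyltransferase SETDB1 and heterochromatin proteins, and are best known for silencing transposable elements. Others have a SCAN domain, which pairs proteins with one another, or serve unrelated tasks such as ribosome quality control. The family lies largely in clusters of neighbouring copies, many of them on chromosome 19.

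Total counts per library were 34434993 to 38163152. Of 9 listed osteosarcoma and mesenchymal markers, VIM stood at 3606 to 4411 CPM, CD44 at 648 to 767 and SPARC at 317 to 391. The others were low: RUNX2 at 9.80 to 16.9 CPM, COL1A1 at 5.15 to 9.24 and S100A4 at 4.91 to 12.1. ALPL was at 1.82 to 3.51 CPM and THY1 at 0 to 0.0269 CPM, and COL1A2 was absent from the deposited symbols. Summed markers of other cell types spanned 1.11 to 2.69 CPM for 4 endothelial genes. They spanned 14.3 to 20.9 CPM for 3 epithelial genes, nearly all of it EPCAM, and 120 to 160 CPM for 3 immune genes, nearly all of it the lysosomal gene CD68. Ribosomal protein genes took 7.34% to 11.0% of counts. Within each BSG-named group, that share was highest in M-BSG-Hot 3, M-BSG 1 and BSG 1, which also had the lowest summed ZNF level of their group.

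The promoter windows of the 3 genes that the results turn on, ZNF92, ZNF780A and ZNF589, are printed below from RefSeq on assembly GRCh38.p14, from 250 bases before to 50 bases after the annotated start, 5′ to 3′ on the gene's strand. They are shown because the first gene was higher in M-BSG and BSG and the other 2 were lower in every BSG-named group. Capitals mark a match to any of 3 motifs, searched on both strands: AP-1 (TGANTCA), the cyclic AMP response element CRE (TGACGTCA) and a heat shock element core (GAANNTTC).
ZNF92 (chr7:65373605-65373904, + strand): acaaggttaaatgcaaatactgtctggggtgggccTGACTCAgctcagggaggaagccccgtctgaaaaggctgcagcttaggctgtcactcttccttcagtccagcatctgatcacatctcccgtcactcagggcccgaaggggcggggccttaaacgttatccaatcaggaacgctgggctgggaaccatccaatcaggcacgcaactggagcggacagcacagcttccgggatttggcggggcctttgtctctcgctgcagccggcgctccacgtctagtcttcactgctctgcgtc
ZNF780A (chr19:40090894-40091193, - strand): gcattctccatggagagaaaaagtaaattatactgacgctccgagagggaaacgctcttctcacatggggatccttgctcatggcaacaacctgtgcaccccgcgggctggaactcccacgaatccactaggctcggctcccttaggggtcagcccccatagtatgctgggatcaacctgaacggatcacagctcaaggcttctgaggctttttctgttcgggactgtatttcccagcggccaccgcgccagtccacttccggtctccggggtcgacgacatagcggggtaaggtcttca
ZNF589 (chr3:48240854-48241153, + strand): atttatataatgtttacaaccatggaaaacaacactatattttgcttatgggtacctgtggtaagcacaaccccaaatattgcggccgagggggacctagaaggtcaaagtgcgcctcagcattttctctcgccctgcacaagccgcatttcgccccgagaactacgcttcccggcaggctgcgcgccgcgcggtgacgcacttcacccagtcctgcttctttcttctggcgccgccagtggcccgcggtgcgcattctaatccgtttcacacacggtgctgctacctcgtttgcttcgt
The ZNF92 window held 1 AP-1 match, and the ZNF780A and ZNF589 windows held none of the 3 motifs. AP-1 matches stood in 5.88% of 289 windows of the 253 genes and 7.71% of all 35116 RefSeq windows of the same length. For CRE the shares were 4.84% of the ZNF windows and 1.85% of all windows, and for the heat shock element core 4.84% and 6.77%. The ZNF windows were richer in G and C, with a median of 62.7%, against 58.7% in all windows. The part of base content in the motif shares was not tested. A match describes the letters only.

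The proteins of the ZNF genes were sorted by motifs in their coding sequence (GENCODE v29). A KRAB box was found in 118, C2H2 fingers with neither KRAB nor SCAN match in 118, and a SCAN match without a KRAB match in 11. No C2H2 match was found in 6, namely ZNF185, ZNF330, ZNF365, ZNF503, ZNF703 and ZNF839. The search can miss divergent boxes, so some genes counted as lacking KRAB may have one. Per base of transcript, the mean level over the 12 libraries spanned 0.309 FPKM (fragments scaled for gene length and library total, as deposited) for ZNF141 to 60.2 FPKM for ZNF622, with a median of 2.88. The next highest were ZNF598 at 42.8, ZNF664 at 37.1, ZNF146 at 36.5 and ZNF22 at 35.0 FPKM. The KRAB genes had a median level of 10.2 CPM, against 22.9 CPM for the 135 others.

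ZNF genes that fell against NC outnumbered those that rose in M-BSG-Hot and BSG, and in M-BSG by a margin that other settings turned, tested with edgeR's quasi-likelihood test with Benjamini-Hochberg adjustment over all 15407 genes tested (adjusted p below 0.05, the rule for every call here). In M-BSG-Hot, 25 of 253 ZNF genes (9.88%) fell, against 3.51% of all genes tested, and 3 (1.19%) rose, against 1.4%. In M-BSG, 18 (7.11%) fell, against 3.13% of all genes, and 12 (4.74%) rose, against 3.22%. In BSG, 43 (17%) fell, against 6.22%, and 9 (3.56%) rose, against 5.5%. In M-BSG the order turned without M-BSG-Hot 2, with 14 higher (5.53%, against 2.99% of all genes) and 13 lower (5.14%, against 2.49%). It also turned with a mean cutoff of 10 CPM, met by 176 ZNF genes, with 10 higher and 9 lower (5.11%, against 2.51%). The share of all genes that rose at this cutoff is not given here, so the 10 rises have no background. With the replicate number as a block and the trend with gene length removed, 21 rose and 21 fell (8.3% each, against 5.71% and 4%). The 3 comparisons share the NC libraries and are not independent of one another. With library totals in place of TMM (trimmed mean of M-values) scaling, 27.3% of the ZNF genes called in M-BSG were higher, against 40% with TMM. Of all genes called there, 37.7% were higher, against 50.7% with TMM.

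The median fitted log2 fold change of the ZNF genes was -0.11 in M-BSG-Hot, -0.06 in M-BSG and -0.14 in BSG, where all genes tested had medians of 0.00, -0.01 and -0.02. The M-BSG median was -0.0208 without M-BSG 1, and between that and -0.0821 with any other library left out. Values below 0 were found for 175 ZNF genes (69.2%) in M-BSG-Hot, against 49.5% of all genes. In M-BSG they numbered 146 (57.7%, against 51.4%) and in BSG 174 (68.8%, against 52%). Most of the shifts were small: 6, 3 and 5 ZNF genes had a log2 fold change of -1 or lower in M-BSG-Hot, M-BSG and BSG.

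**Figure D1:**
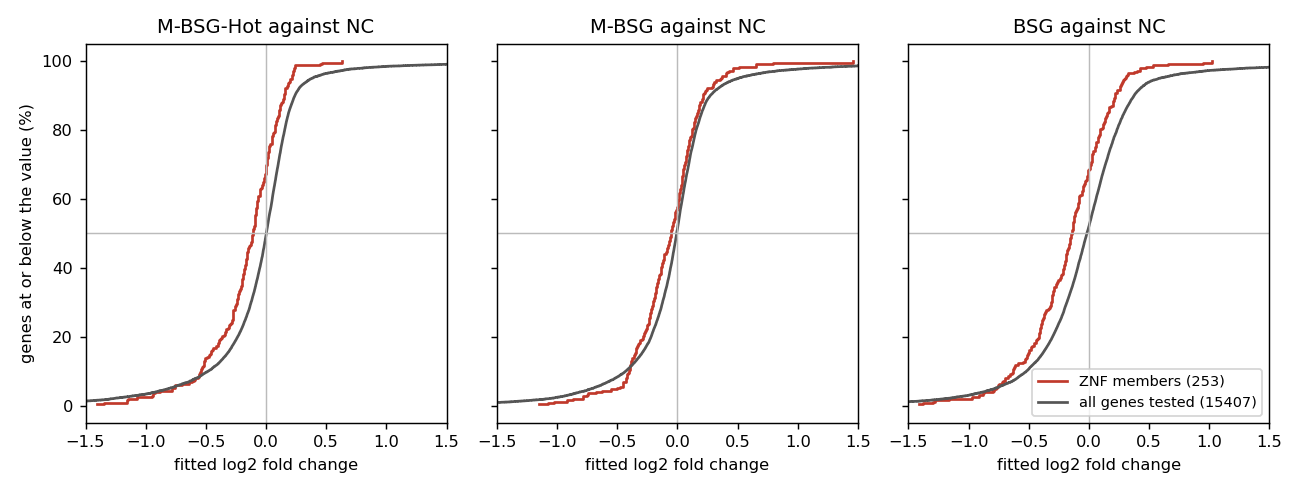
Cumulative share of genes (y axis, %) at or below each fitted log2 fold change against NC (x axis, drawn from -1.5 to 1.5) for the 253 ZNF genes and all 15407 genes tested. The ZNF line lies left of the line of all genes around the median, by the least in M-BSG, where the medians were -0.06 and -0.01.

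Counted by libraries, all 9 libraries of the BSG-named groups lay below all 3 NC libraries for 45 ZNF genes (17.8%), against 7.23% of all genes, and above them for 8 (3.16%), against 5.4%. Group by group, all 3 libraries lay below NC for 82 ZNF genes in M-BSG-Hot (32.4%, against 14.5%), 68 in M-BSG (26.9%, against 15.1%) and 88 in BSG (34.8%, against 20.6%). They lay above NC for 17 in M-BSG-Hot (6.72%, against 13.5%), 33 in M-BSG (13%, against 12.4%) and 27 in BSG (10.7%, against 18.1%). The sum of the 253 genes, in TMM-scaled CPM, was 6450, 6303 and 6007 in M-BSG-Hot, 6174, 6872 and 6735 in M-BSG, 5705, 6407 and 6293 in BSG, and 6516, 6800 and 6780 in NC. The M-BSG-Hot and BSG sums all lay below the NC sums, and M-BSG overlapped NC. Means were 6253 ± 226, 6594 ± 370 and 6135 ± 377 in the BSG-named groups and 6699 ± 158 in NC (SD, n = 3 each).

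**Figure D2:**
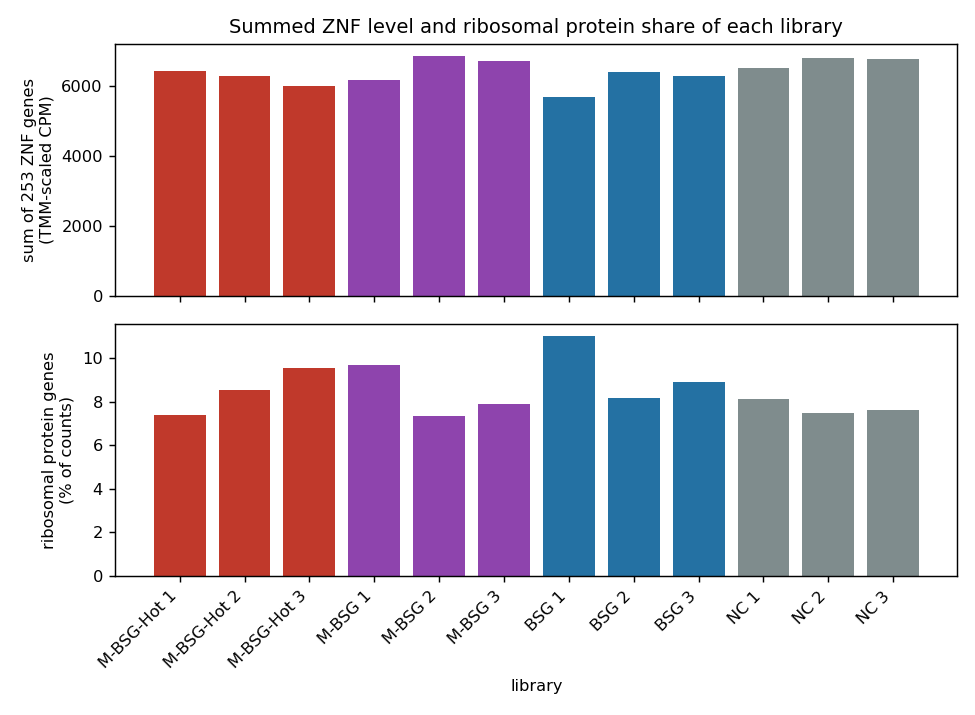
Summed TMM-scaled CPM of the 253 ZNF genes (top) and ribosomal protein genes as % of counts (bottom) in each of the 12 libraries, colored by group. M-BSG-Hot 3, M-BSG 1 and BSG 1 have the lowest ZNF sum and the highest ribosomal protein share of their groups.

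Leaving out those 3 libraries together, 43 ZNF genes fell in M-BSG-Hot (17%, against 5.53% of all genes), 29 in M-BSG (11.5%, against 5.93%) and 51 in BSG (20.2%, against 9.22%). Leaving out NC 2 or NC 3 left 16 genes lower in M-BSG-Hot, and without M-BSG-Hot 3 there were 15, where 1.82% to 2.11% of all genes were lower. In M-BSG, 9 were lower without NC 1 or NC 2, 8 without NC 3 or M-BSG 3 and 10 without M-BSG 1, where 1.58% to 2.2% of all genes were lower. In BSG, 20 were lower without NC 2 and 22 without NC 3 or BSG 1, where 2.74% to 3.29% of all genes were lower. Counts of genes that rose came to 1 in M-BSG-Hot without NC 3 (0.733% of all genes). They came to 6 in M-BSG without NC 1 or NC 3 and 7 without M-BSG 3 (1.95% to 2.08% of all genes), and to 5 in BSG without NC 2 or NC 3 (2.7% and 2.73%). The part of the ribosomal protein share in these counts was not tested.

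In all, 45 ZNF genes (17.8%, against 7.47% of all genes) fell in at least 1 BSG-named group, 13 (5.14%, against 6.11%) rose in at least 1, none did both, and 195 were called in neither direction. The uncalled genes spanned log2 fold changes of -0.75 to 0.42, and for 181 of them all 3 values lay within 0.5 of 0. There were 13 ZNF genes (5.14%, against 1.94% of all genes) that fell in all 3 groups: ZNF141, ZNF248, ZNF397, ZNF512, ZNF589, ZNF691, ZNF70, ZNF780A, ZNF780B, ZNF785, ZNF789, ZNF852 and ZNF891. A further 15 (5.93%, against 1.52%) fell in 2 groups: ZNF121, ZNF33B, ZNF514, ZNF526, ZNF587, ZNF621, ZNF641, ZNF646, ZNF678, ZNF718, ZNF736, ZNF783, ZNF791, ZNF8 and ZNF875. The other 17 (6.72%, against 4.01%) fell in 1 group, with values in called and uncalled groups between -0.75 and -0.11.

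**Figure D3:**
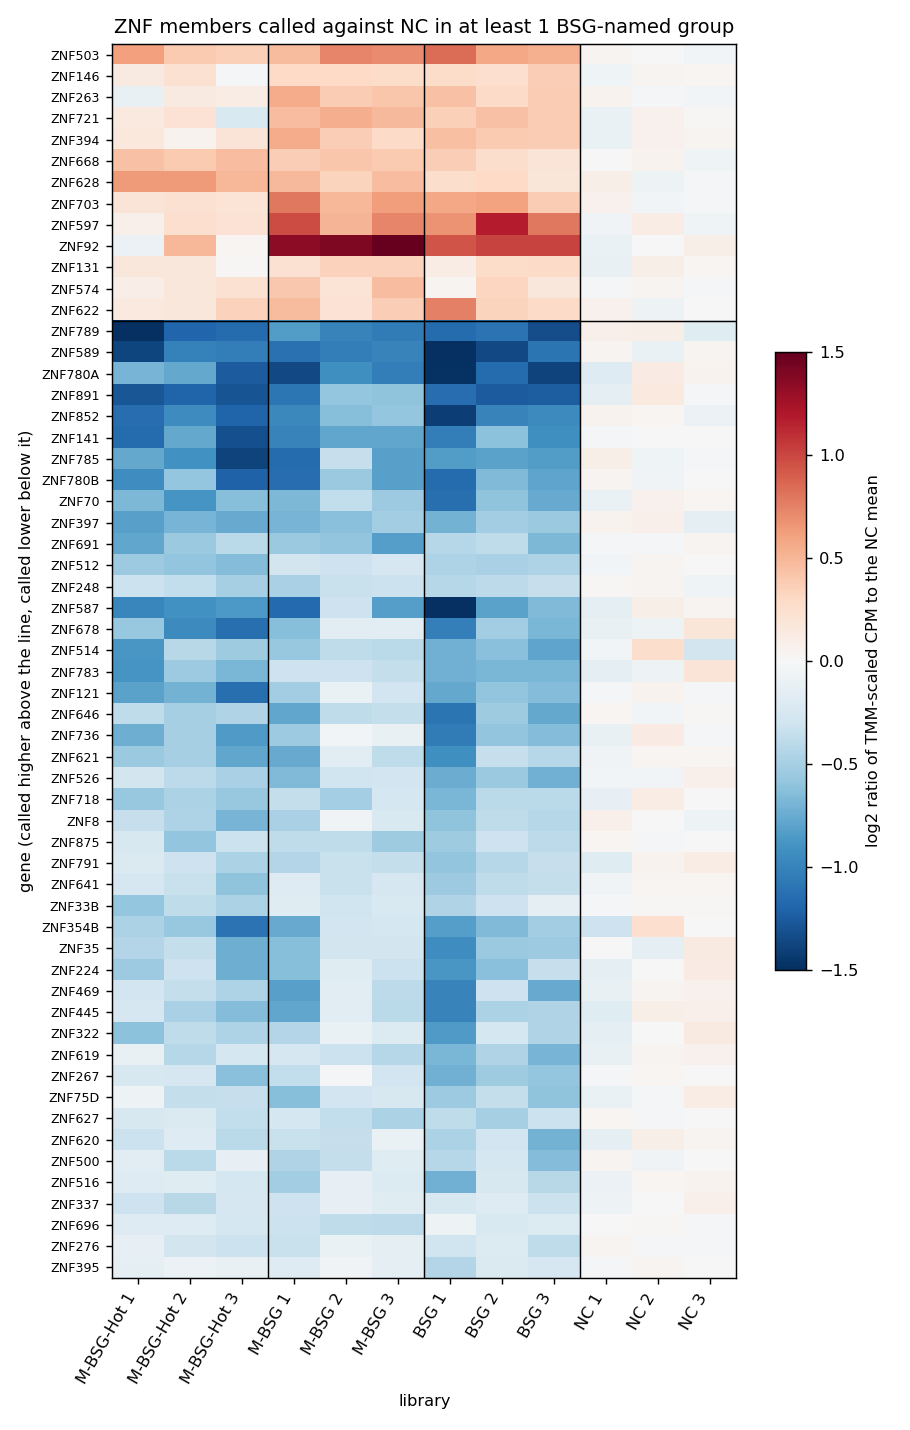
Log2 ratio of TMM-scaled CPM (0.5 added) to the NC mean for the 58 ZNF genes called against NC in at least 1 BSG-named group (rows) in the 12 libraries (columns); red is above the NC mean and blue below. ZNF92 is dark red in all M-BSG and BSG libraries and near 0 in M-BSG-Hot 1 and 3.

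ZNF780A and ZNF589 had the largest falls in BSG. ZNF780A, a KRAB zinc finger gene, stood at 8.45, 8.00 and 5.59 in M-BSG-Hot, 5.18, 7.14 and 6.57 in M-BSG, 4.67, 6.01 and 5.04 in BSG and 12.2, 15.2 and 14.5 in NC (TMM-scaled CPM, as are all library values below). Every NC library lay above all 9 others. Its log2 fold changes (± SE) were -0.93 ± 0.17 in M-BSG-Hot (adjusted p = 0.00497), -1.15 ± 0.17 in M-BSG (adjusted p = 8.22e-04) and -1.41 ± 0.17 in BSG (adjusted p = 1.21e-04), by edgeR's quasi-likelihood test.

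ZNF780B is the closest relative of ZNF780A among the 253 genes. Their proteins share 38.6% of 10-residue words, so reads of one could have been counted to the other and their values are uncertain to that extent. Its levels were 5.33, 6.92 and 4.29 in M-BSG-Hot, 4.52, 7.06 and 5.84 in M-BSG, 4.48, 6.51 and 5.93 in BSG and 10.9, 10.2 and 10.6 in NC, again with NC above all the rest. The edgeR log2 fold changes were -0.94 ± 0.19 in M-BSG-Hot (adjusted p = 0.0108), -0.87 ± 0.19 in M-BSG (adjusted p = 0.0142) and -0.91 ± 0.19 in BSG (adjusted p = 0.00773). The call was lost in M-BSG-Hot without M-BSG-Hot 3, and in M-BSG without NC 1, NC 3, M-BSG 1 or M-BSG 3.

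ZNF589, a KRAB gene first described in blood stem cells, had levels of 16.9, 21.8 and 21.6 in M-BSG-Hot, 20.3, 21.4 and 22.0 in M-BSG, 13.7, 17.2 and 20.6 in BSG and 46.1, 41.8 and 46.0 in NC. The 9 libraries of the BSG-named groups lay below all NC libraries, with the lowest in BSG 1. Its log2 fold changes by edgeR were -1.15 ± 0.13 in M-BSG-Hot (adjusted p = 1.35e-04), -1.07 ± 0.13 in M-BSG (adjusted p = 1.86e-04) and -1.38 ± 0.13 in BSG (adjusted p = 1.47e-05).

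ZNF789 had the largest fall in M-BSG-Hot. It stood at 3.32, 4.70 and 4.83 in M-BSG-Hot, 6.11, 5.41 and 5.24 in M-BSG, 4.84, 5.02 and 4.21 in BSG and 12.0, 12.1 and 9.91 in NC, without overlap with NC. The edgeR log2 fold changes were -1.41 ± 0.15 in M-BSG-Hot (adjusted p = 7.96e-05), -1.02 ± 0.15 in M-BSG (adjusted p = 7.59e-04) and -1.27 ± 0.15 in BSG (adjusted p = 9.62e-05).

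ZNF891 and ZNF852 also fell in every BSG-named group. ZNF891 levels were 4.43, 4.72 and 4.37 in M-BSG-Hot, 5.15, 7.54 and 7.36 in M-BSG, 4.93, 4.55 and 4.61 in BSG and 10.4, 12.8 and 11.3 in NC. With edgeR, ZNF891 gave log2 fold changes of -1.35 ± 0.15 in M-BSG-Hot (adjusted p = 7.96e-05), -0.78 ± 0.14 in M-BSG (adjusted p = 0.00413) and -1.29 ± 0.15 in BSG (adjusted p = 6.47e-05). ZNF852 averaged 7.16 ± 0.720, 9.42 ± 1.38 and 7.06 ± 1.25 in M-BSG-Hot, M-BSG and BSG, and 15.8 ± 0.854 in NC (SD, n = 3 each). Its edgeR values were -1.15 ± 0.15 in M-BSG-Hot (adjusted p = 2.80e-04), -0.75 ± 0.14 in M-BSG (adjusted p = 0.00562) and -1.16 ± 0.15 in BSG (adjusted p = 1.52e-04). No library of the BSG-named groups reached the NC range for either gene.

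ZNF141, the gene with the lowest level per length, stood at 3.45, 4.70 and 3.04 in M-BSG-Hot, 3.92, 4.64 and 4.64 in M-BSG, 3.81, 5.28 and 4.15 in BSG and 8.25, 8.34 and 8.39 in NC. The NC libraries differed little among themselves and lay above all others. Its log2 fold changes by edgeR were -1.16 ± 0.17 in M-BSG-Hot (adjusted p = 9.54e-04), -0.92 ± 0.17 in M-BSG (adjusted p = 0.00388) and -0.91 ± 0.17 in BSG (adjusted p = 0.00298).

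ZNF785 levels were 5.33, 4.80 and 3.29 in M-BSG-Hot, 3.94, 7.27 and 5.15 in M-BSG, 5.07, 5.20 and 5.07 in BSG and 10.0, 8.98 and 9.23 in NC, with M-BSG 2 the nearest to NC. The edgeR log2 fold changes were -1.07 ± 0.20 in M-BSG-Hot (adjusted p = 0.00656), -0.79 ± 0.20 in M-BSG (adjusted p = 0.0314) and -0.88 ± 0.20 in BSG (adjusted p = 0.0127). The M-BSG call was lost without any 1 of NC 1, NC 2, NC 3, M-BSG 1, M-BSG 3 or M-BSG-Hot 2.

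ZNF587 levels were 10.8, 11.4 and 11.8 in M-BSG-Hot, 9.50, 17.5 and 12.1 in M-BSG, 7.36, 12.3 and 13.7 in BSG and 19.7, 23.4 and 22.6 in NC. All 9 lay below NC, but BSG and M-BSG were widely spread. By edgeR it fell in 2 groups, with log2 fold changes of -0.95 ± 0.22 in M-BSG-Hot (adjusted p = 0.0220) and -0.97 ± 0.22 in BSG (adjusted p = 0.0110), and the M-BSG value of -0.74 ± 0.22 (adjusted p = 0.0585) missed the threshold. The M-BSG-Hot call was lost without NC 2, NC 3 or any 1 M-BSG-Hot library.

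ZNF121 was one of 3 ZNF genes that fell in M-BSG-Hot against M-BSG. It stood at 34.03, 36.4 and 26.9 in M-BSG-Hot, 41.5, 55.6 and 48.6 in M-BSG, 34.8, 39.5 and 37.9 in BSG and 58.4, 61.9 and 58.4 in NC. M-BSG-Hot lay below M-BSG throughout, and M-BSG lay between BSG and NC without reaching either. By edgeR the log2 fold changes against NC were -0.88 ± 0.12 in M-BSG-Hot (adjusted p = 5.24e-04), -0.29 ± 0.12 in M-BSG (adjusted p = 0.187) and -0.67 ± 0.12 in BSG (adjusted p = 0.00232). Against M-BSG the value was -0.58 ± 0.12 (adjusted p = 0.0420), a call that 11 of 23 other settings lost, among them the removal of any 1 NC library, BSG 2 or 3, M-BSG 2 or 3, or M-BSG-Hot 1 or 3.

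Among the genes that rose, ZNF92 had the highest log2 fold changes in M-BSG and BSG. This KRAB gene stood at 9.70, 14.8 and 10.6 in M-BSG-Hot, 27.2, 28.3 and 30.1 in M-BSG, 20.4, 21.5 and 21.4 in BSG and 9.67, 10.4 and 11.0 in NC. M-BSG was highest, BSG next without overlap, and M-BSG-Hot overlapped NC. By edgeR it rose in 2 groups, with log2 fold changes of 1.46 ± 0.13 in M-BSG (adjusted p = 1.29e-05) and 1.02 ± 0.13 in BSG (adjusted p = 1.95e-04), while M-BSG-Hot had 0.17 ± 0.13 (adjusted p = 0.558). It fell in M-BSG-Hot against M-BSG, by a log2 fold change of -1.29 ± 0.13 (adjusted p = 0.00213). M-BSG against BSG gave 0.43 ± 0.13 (adjusted p = 0.568) and missed the threshold.

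**Figure D4:**
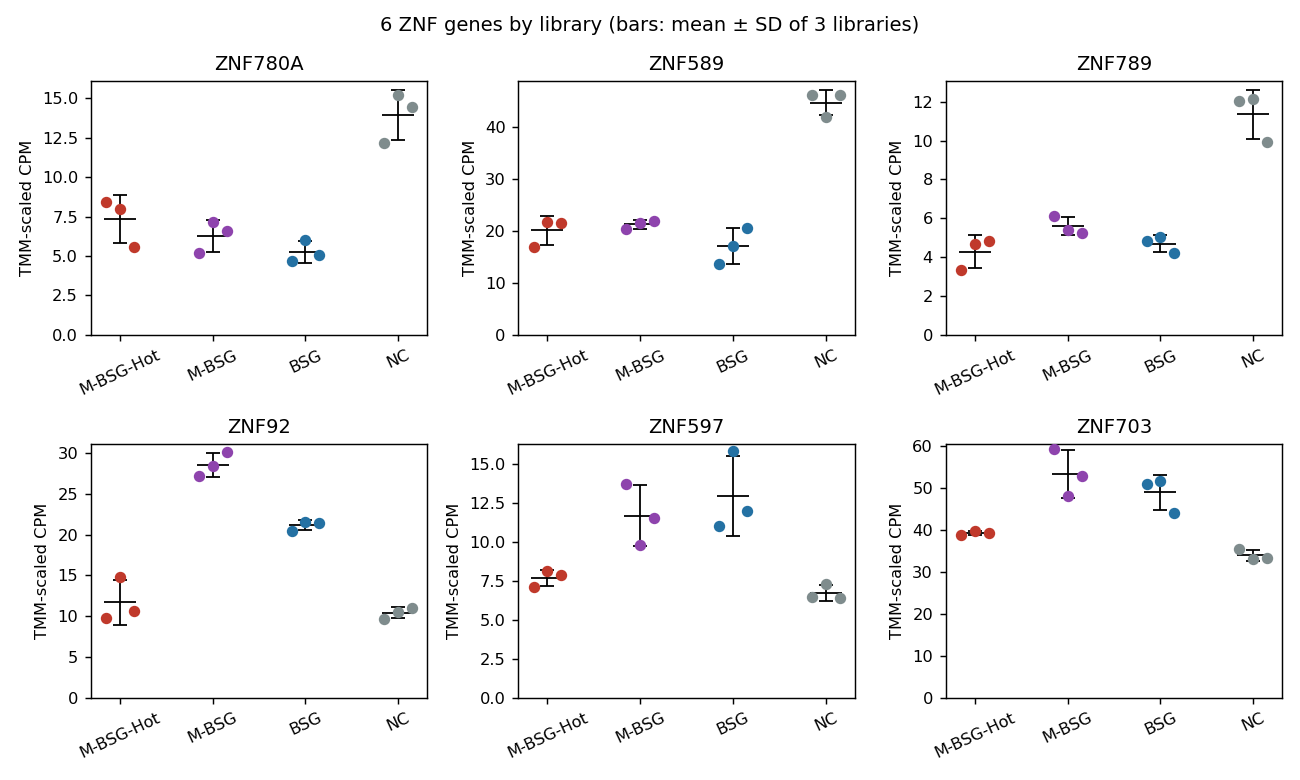
TMM-scaled CPM (y axis, from 0) of ZNF780A, ZNF589, ZNF789, ZNF92, ZNF597 and ZNF703 in each library, with M-BSG-Hot left, then M-BSG, BSG and NC; points are libraries and bars the mean ± SD of 3. For the first 3 genes every NC point lies above all others, and for ZNF92 the M-BSG points, at 27.2 to 30.1, lie highest.

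ZNF597, an imprinted gene expressed from the maternal copy, had levels of 7.12, 8.10 and 7.88 in M-BSG-Hot, 13.7, 9.78 and 11.5 in M-BSG, 11.0, 15.8 and 12.0 in BSG and 6.44, 7.30 and 6.42 in NC. M-BSG and BSG lay above NC throughout, and M-BSG-Hot overlapped NC. It rose by edgeR in the 2 groups, with log2 fold changes of 0.80 ± 0.15 in M-BSG (adjusted p = 0.00593) and 0.95 ± 0.15 in BSG (adjusted p = 0.00126), and M-BSG-Hot had 0.20 ± 0.16 (adjusted p = 0.563). ZNF263, which lies in the same run of neighbouring ZNF genes, rose in both groups by log2 fold changes of 0.46 in M-BSG and 0.38 in BSG. Against M-BSG, the M-BSG-Hot value of ZNF597 was -0.60 ± 0.15 (adjusted p = 0.131, edgeR).

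ZNF503 and ZNF703 encode the related NET family corepressors, and ZNF703 is amplified in some breast cancers. ZNF503 was the single ZNF gene that rose in all 3 groups (0.395% of the 253, against 1.06% of all genes). It stood at 52.1, 44.6 and 43.6 in M-BSG-Hot, 47.3, 56.4 and 55.6 in M-BSG, 60.6, 50.6 and 49.0 in BSG and 34.7, 33.9 and 32.9 in NC, with every NC library below the rest. Its edgeR log2 fold changes were 0.47 ± 0.10 in M-BSG-Hot (adjusted p = 0.0172), 0.65 ± 0.10 in M-BSG (adjusted p = 0.00135) and 0.66 ± 0.10 in BSG (adjusted p = 9.40e-04). The M-BSG-Hot call was lost without NC 1, NC 2, NC 3 or M-BSG-Hot 1.

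ZNF703 stood at 38.9, 39.7 and 39.4 in M-BSG-Hot, 59.3, 48.1 and 52.9 in M-BSG, 51.0, 51.8 and 44.2 in BSG and 35.5, 33.1 and 33.2 in NC. M-BSG-Hot lay just above NC and below M-BSG and BSG, with no overlap. By edgeR it rose in M-BSG and BSG, with log2 fold changes of 0.65 ± 0.09 in M-BSG (adjusted p = 4.29e-04) and 0.53 ± 0.09 in BSG (adjusted p = 0.00170), and the M-BSG-Hot value was 0.21 ± 0.09 (adjusted p = 0.238). Against M-BSG, M-BSG-Hot fell by a log2 fold change of -0.44 ± 0.09 (adjusted p = 0.0403). That call was lost in 10 of 23 other settings, among them the removal of any 1 NC or M-BSG-Hot library, BSG 2, or M-BSG 1 or 3.

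ZNF628 and ZNF668 rose in M-BSG-Hot and M-BSG and missed the threshold in BSG. ZNF628 levels were 9.70, 9.71 and 8.80 in M-BSG-Hot, 8.68, 7.78 and 8.56 in M-BSG, 7.36, 7.61 and 6.93 in BSG and 6.50, 5.74 and 5.97 in NC, all 9 above NC. Its edgeR log2 fold changes were 0.63 ± 0.11 in M-BSG-Hot (adjusted p = 0.00279), 0.46 ± 0.11 in M-BSG (adjusted p = 0.0189) and 0.27 ± 0.11 in BSG (adjusted p = 0.113). ZNF668 averaged 13.0 ± 0.366, 12.6 ± 0.192 and 11.6 ± 0.748 in M-BSG-Hot, M-BSG and BSG, and 9.51 ± 0.387 in NC (SD, n = 3 each). The edgeR values were 0.45 ± 0.09 in M-BSG-Hot (adjusted p = 0.00999), 0.41 ± 0.09 in M-BSG (adjusted p = 0.0145) and 0.29 ± 0.09 in BSG (adjusted p = 0.0545). The M-BSG call of ZNF628 was lost without NC 2, NC 3, M-BSG 1 or M-BSG 3. For ZNF668 the M-BSG call was lost without NC 1, NC 3, M-BSG 2 or M-BSG 3, and the M-BSG-Hot call without NC 3.

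The genes at the highest level per length follow. ZNF622, the human counterpart of a yeast factor that matures the large ribosomal subunit, had 94.2, 96.3 and 109 in M-BSG-Hot, 118, 99.1 and 111 in M-BSG, 144, 107 and 104 in BSG and 89.1, 81.0 and 85.6 in NC. BSG 1 was the highest, and all 9 libraries of the BSG-named groups lay above NC. By edgeR it rose in BSG, with log2 fold changes of 0.23 ± 0.12 in M-BSG-Hot (adjusted p = 0.347), 0.36 ± 0.12 in M-BSG (adjusted p = 0.0915) and 0.48 ± 0.12 in BSG (adjusted p = 0.0182). The BSG call was lost without NC 2 or NC 3. ZNF146, made almost only of fingers, averaged 128 ± 11.1, 145 ± 1.25 and 145 ± 6.62 in M-BSG-Hot, M-BSG and BSG, and 118 ± 4.31 in NC (SD, n = 3 each). By edgeR it rose, with log2 fold changes of 0.29 ± 0.08 in M-BSG (adjusted p = 0.0312) and 0.30 ± 0.08 in BSG (adjusted p = 0.0208), and M-BSG-Hot had 0.12 ± 0.08 (adjusted p = 0.452). Its M-BSG call was lost without any 1 NC or M-BSG library, and its BSG call without any 1 NC library or BSG 3.

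ZNF598, a ubiquitin ligase that senses collided ribosomes, averaged 151 ± 10.5, 141 ± 6.19 and 143 ± 7.96 in M-BSG-Hot, M-BSG and BSG, and 140.5 ± 3.83 in NC (SD, n = 3 each). Its log2 fold changes were 0.10, 0.01 and 0.03 in the same order, and none passed the test. ZNF664 gave -0.16, -0.13 and -0.17, and ZNF22 gave 0.00, 0.18 and 0.20, also uncalled. Other members with known roles that were not called in any comparison of the main fit were ZNF274, which recruits SETDB1, ZNF143, a promoter-binding activator, ZNF410, a regulator of CHD4, ZNF217, an oncogene amplified in breast cancer, ZNF281, a regulator of pluripotency genes, ZNF593, a ribosome assembly factor, and ZNF207, a spindle checkpoint protein. ZNF593 in BSG had the largest value of these, a log2 fold change of 0.42 ± 0.17 (adjusted p = 0.109, edgeR), with 32.5, 21.0 and 21.1 in BSG against 20.3, 16.6 and 18.7 in NC. Against NC, other settings called ZNF274 in M-BSG (3 of 23 settings) and ZNF22 in BSG (1). They called ZNF143 in M-BSG-Hot (2), M-BSG (1) and BSG (2), and ZNF207 in M-BSG-Hot (1) and BSG (2).

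Sorted by protein class, genes with a KRAB match supplied 27 of the 45 that fell and 2 of the 13 that rose. The search put ZNF263 and ZNF394, which rose, and ZNF397 and ZNF500, which fell, in the SCAN class. It found neither a KRAB nor a SCAN match in ZNF597, which rose, or ZNF641, which fell. A KRAB box missed in any of these or in another called gene would change the class counts given here. In M-BSG-Hot, 17 of 118 KRAB genes (14.4%) fell and none rose, where 8 of the 135 others (5.93%) fell and 3 (2.22%) rose. Of all genes tested, 3.51% fell and 1.4% rose there. In M-BSG, 10 KRAB genes (8.47%) fell and 2 (1.69%) rose, against 8 (5.93%) and 10 (7.41%) of the others. For all genes these shares were 3.13% and 3.22%. In BSG, 26 KRAB genes (22%) fell and 2 (1.69%) rose, against 17 (12.6%) and 7 (5.19%) of the others. There, 6.22% of all genes fell and 5.5% rose. Median log2 fold changes of KRAB genes and the others were -0.185 and -0.0675 in M-BSG-Hot and -0.129 and -0.0169 in M-BSG. In BSG the 2 medians were close in the main fit, at -0.146 and -0.135. With single libraries left out, the KRAB share stayed above that of the others, by as little as 6.78% against 5.19% in M-BSG-Hot without M-BSG-Hot 3, 4.24% against 3.7% in M-BSG without M-BSG 1, and 20.3% against 17.8% in BSG without BSG 2. KRAB falls numbered 8 to 22 in M-BSG-Hot, with the fewest without M-BSG-Hot 3, NC 2 (9), M-BSG-Hot 1 (10) and NC 3 (11). They numbered 5 to 12 in M-BSG, with 5 without NC 3, M-BSG 1 or M-BSG 3 and 6 without NC 1 or NC 2. They numbered 12 to 30 in BSG, with 12 without NC 2, 13 without BSG 1 and 15 without NC 3. Falls among the others ranged over 5 to 11, 3 to 9 and 7 to 24. The difference between the classes was not tested.

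KRAB genes were also longer, with a median gene length of 5612 bases, against 5180 bases for the others. Split at the ZNF median of 5439 bases, 15 of 63 longer KRAB genes (23.8%) fell in M-BSG-Hot, as did 6 of 63 longer others (9.52%). Among shorter genes 2 of 55 KRAB (3.64%) and 2 of 72 others (2.78%) fell. In BSG the longer genes fell in 31.7% of KRAB genes and 17.5% of others, and the shorter in 10.9% and 8.33%. In M-BSG the 4 shares were 14.3% and 6.35% of the longer, and 1.82% and 5.56% of the shorter. Level differed too, with a median of 10.2 CPM for KRAB genes and 22.9 CPM for the others. Of the 127 ZNF genes with the lower mean CPM, 13.4% fell in M-BSG-Hot, 11.0% in M-BSG and 23.6% in BSG. Of the 126 with the higher mean CPM, 6.35%, 3.17% and 10.3% fell in the same order. Of all genes tested, at any level, 3.51%, 3.13% and 6.22% fell. In M-BSG the share of the 126 was thus near that of all genes. The classes were not compared at matched levels, so the part of level in the KRAB shares was not tested.

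Gene length moved with the falls in all genes as well. In M-BSG-Hot, 16.7% of longer ZNF genes fell, against 4.51% of all genes longer than 5439 bases, and 3.15% of shorter ZNF genes, against 3.01%. In M-BSG the shares were 10.3%, against 3.54%, and 3.94%, against 2.93%. In BSG they were 24.6%, against 9.75%, and 9.45%, against 4.44%. With the length trend of each library taken out, 30 ZNF genes fell in M-BSG-Hot (11.9%, against 4.06% of all genes), 22 in M-BSG (8.7%, against 3.99%) and 38 in BSG (15%, against 6.48%). The genes that fell had a median length of 7024 bases and those that rose 3792 bases. Its part in the calls was not tested beyond these counts.

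**Figure D5:**
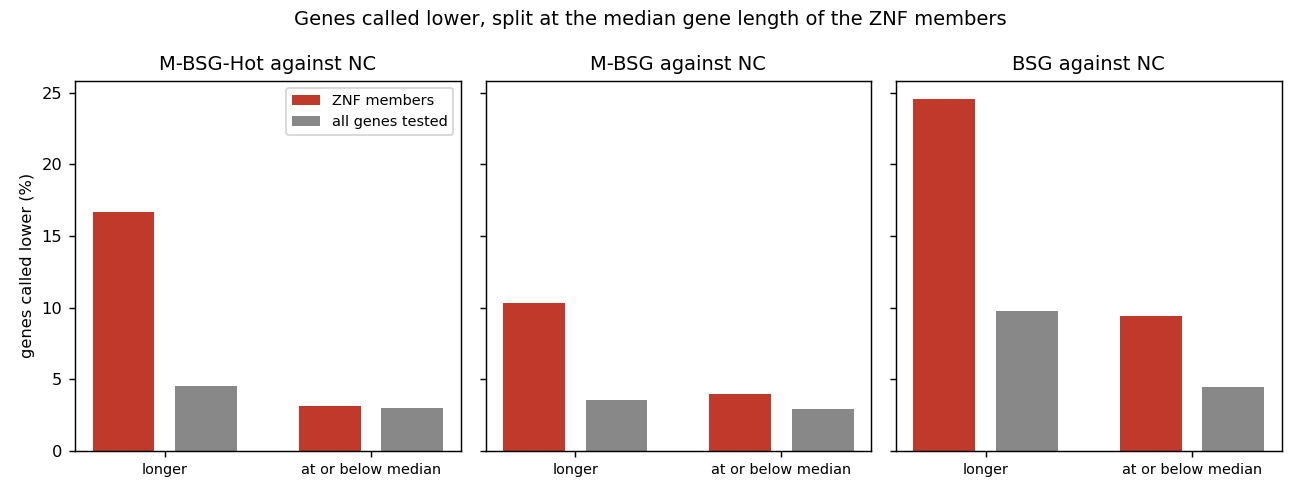
Share of genes called lower against NC (y axis, %) for the 253 ZNF genes and all 15407 genes tested, split at the median ZNF gene length of 5439 bases into longer genes and those at or below the median. In each BSG-named group the longer ZNF genes have the highest share, from 10.3% in M-BSG to 24.6% in BSG.

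Genes that neighbour each other were compared next. In the RefSeq gene order, 68 of the 253 lay in 12 runs of at least 4 members with at most 2 other genes between them. The longest run, 15 genes from ZNF264 to ZNF587, had 12 members below 0 in M-BSG-Hot, 10 in M-BSG and 13 in BSG, and ZNF587 alone was called, in M-BSG-Hot and BSG. The 4 genes from ZNF248 to ZNF33B were all below 0 in each group, with ZNF248 called in all 3 and ZNF33B in M-BSG-Hot and BSG. ZNF33B shares 55% of its 10-residue words with ZNF33A, so their counts are uncertain. In the run from ZNF205 to ZNF597, 2 of 7 rose in M-BSG and in BSG, ZNF263 and ZNF597, and none in M-BSG-Hot. Over all runs, 11.8% of members fell in M-BSG-Hot, against 9.19% of members outside runs. The shares were 4.41%, against 8.11%, in M-BSG and 13.2%, against 18.4%, in BSG.

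Between the BSG-named groups few ZNF genes were called. M-BSG against BSG gave 0 ZNF genes in either direction (background 0% higher and 0.13% lower) with edgeR, and 0 with DESeq2. At an unadjusted p below 0.05, edgeR had 21 higher and 4 lower, and the share of all genes at that threshold was not counted. The ZNF median log2 fold change was 0.09, against 0.00 for all genes tested. M-BSG-Hot against M-BSG gave 0 higher (background 0.0974%) and 3 lower (1.19%, against 0.597%), namely ZNF121, ZNF703 and ZNF92, with a median of -0.08, against 0.00. Without regard to the test, the libraries of M-BSG and BSG did not overlap for 22 ZNF genes higher in M-BSG (8.7%, against 4.08% of all genes) and 9 lower (3.56%, against 4.82%). Those of M-BSG-Hot and M-BSG did not overlap for 14 higher in M-BSG-Hot (5.53%, against 6.28%) and 40 lower (15.8%, against 7.5%). The 3 calls became 1 (0.395%) without NC 1, NC 2, NC 3, BSG 2, M-BSG 3, M-BSG-Hot 1 or M-BSG-Hot 3, where 0.14% to 0.414% of all genes were lower. Without BSG 1 they became 5 (1.98%, against 0.784%).

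Genes for partners of KRAB proteins were read from a list of silencing cofactors. Of 31 silencing cofactors tested, CBX3, a heterochromatin protein, rose in BSG at 280 ± 26.6 against 224 ± 3.27 CPM in NC (log2 fold change 0.32 ± 0.09, adjusted p = 0.0284, edgeR). CBX5, its relative, fell in BSG at 186 ± 27.1 against 276 ± 19.1 CPM in NC (-0.57 ± 0.11, adjusted p = 0.0056). In BSG, 1 of 31 (3.23%) thus rose, against 5.5% of all genes, and 1 fell, against 6.22%. No cofactor was called in M-BSG-Hot or M-BSG by edgeR. CBX5 missed the threshold there, at -0.39 ± 0.11 in M-BSG-Hot (adjusted p = 0.0716) and -0.38 ± 0.11 in M-BSG (adjusted p = 0.0651). Each of its libraries in the BSG-named groups lay below every NC library. In M-BSG-Hot, 4 cofactors lay above NC without overlap (12.9%, against 13.5% of all genes) and 1 below (3.23%, against 14.5%). In M-BSG 7 lay above (22.6%, against 12.4%) and 2 below (6.45%, against 15.1%). In BSG 8 lay above (25.8%, against 18.1%) and 5 below (16.1%, against 20.6%). Median log2 fold changes of the 31 were 0.05, 0.08 and -0.04 in the same order. At an unadjusted p below 0.05, 0 were higher and 1 lower in M-BSG-Hot, 3 higher and 1 lower in M-BSG, and 6 higher and 2 lower in BSG. The share of all genes at that threshold was not counted, so these numbers have no background. TRIM28 averaged 508 ± 48.0, 459 ± 18.8 and 480 ± 38.6 CPM in M-BSG-Hot, M-BSG and BSG, and 449 ± 18.7 CPM in NC (SD, n = 3 each).

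Retroviral envelope and related transcripts, a class of KRAB targets, had 4 of 9 listed genes tested. ERVK13-1 fell in all 3 groups, at 1.62 ± 0.305, 1.56 ± 0.0722 and 2.05 ± 0.361 CPM in M-BSG-Hot, M-BSG and BSG, and 4.71 ± 0.375 CPM in NC. Its edgeR log2 fold changes were -1.54, -1.59 and -1.20 in that order, with adjusted p = 1.99e-04, 1.17e-04 and 7.87e-04. That was 1 of 4 genes (25%) in each group, where 3.51%, 3.13% and 6.22% of all genes fell, and 1.94% in all 3. ERV3-1 (log2 fold changes 0.42, 0.30 and 0.05) and ERVMER34-1 (-0.05, -0.02 and -0.09) were not called in any comparison. ERVW-1 was called higher in BSG, at 0.546 ± 0.162 CPM, with 0 counts in every NC library, and fell in M-BSG against BSG. Of all genes, 5.5% rose in BSG and 0.13% fell in M-BSG against BSG. A count of 0 allows up to 3 counts, or 0.0786 to 0.0871 CPM depending on the library, for counting error only.

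Other C2H2 families were read with the same mean cutoff. Of all genes tested, 3.51%, 3.13% and 6.22% fell in M-BSG-Hot, M-BSG and BSG, and 1.4%, 3.22% and 5.5% rose. Of 36 ZBTB genes, 3 fell (8.33%) and 2 rose (5.56%) in M-BSG-Hot. In M-BSG 1 fell and 1 rose (2.78% each), and in BSG 7 fell (19.4%) and 1 rose (2.78%). ZBTB2 rose in all 3 groups and ZBTB25 fell in all 3. Of 15 ZSCAN and ZKSCAN genes, 1 fell in M-BSG-Hot (6.67%), 1 in M-BSG (6.67%) and 4 in BSG (26.7%), where ZSCAN21 rose (6.67%). Of 11 ZFP genes, 1 fell in M-BSG-Hot (9.09%), 2 in M-BSG (18.2%) and 2 in BSG (18.2%). In the same order 1 (9.09%), 1 (9.09%) and 2 (18.2%) rose. ZFP36, an RNA-binding protein with fingers of another type, rose in all 3 groups. ZFP69 rose in BSG, at 8.10 ± 0.768 against 5.84 ± 0.462 CPM in NC (SD, n = 3 each), and edgeR gave it 0.47 ± 0.12 (log2 fold change ± SE) at an adjusted p = 0.0218. Of 9 PRDM genes, PRDM1 rose in all 3 groups (11.1% in each) and none fell. At an unadjusted p below 0.05, 1, 0 and 3 were lower in M-BSG-Hot, M-BSG and BSG. The share of all genes at that threshold was not counted. Median log2 fold changes in BSG were -0.25 for ZBTB and -0.25 for ZSCAN and ZKSCAN. They were -0.0003 for ZFP and -0.02 for PRDM, against -0.14 for the ZNF genes.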

How the data were processed

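Per the labels' protocols, the 143B libraries were built with a SMARTER mRNA-Seq kit. The authors deposited whole read counts per gene symbol and FPKM values for each of the 12 libraries. The deposited FPKM equal the counts divided by a gene length and the library total, in 100% of values within a relative tolerance of 1e-06. How reads were aligned, annotated and counted, and whether strand was used, is not given in the sources used here. A mouse assembly stands in the submitters' processing notes although the symbols are human. The authors' build is therefore unresolved, and RefSeq was used for names, gene order and promoter windows only.

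Genes kept by filterByExpr (minimum count 10) were tested with edgeR 4.0.16 (TMM scaling, quasi-likelihood fit of 4 group means to all 12 libraries, R 4.3.3) and Benjamini-Hochberg adjustment at 0.05. All 253 ZNF genes passed the filter. TMM factors were 0.951 to 1.05. The fit was tested on simulated BSG and NC counts over 15258 genes, where it found 100% of genes changed by a log2 fold change of 1 and 50% of those changed by 0.5, with 6.25% false calls. The simulated spread depended on the level of a gene alone, with no pattern shared by genes within a library. The false call rate may therefore differ in the real libraries. DESeq2 1.42.0 and limma 3.58.1 were alternatives. Replicate pairs differed beyond sampling noise, with a chi-square per degree of freedom of 3.37 to 60.9.

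Genes named in the text were, for each group against NC, the 6 lowest and 3 highest log2 fold changes among called genes without overlap. To these came up to 3 called genes per direction between BSG-named groups, the 5 genes highest in FPKM, ZNF780A, ZNF589 and ZNF92, and a list with known roles. Genes in full lists of calls and in gene runs, families and cofactor lists are named as members of those lists, and ZNF593 and ZNF263 values were singled out after they were seen. The members, lists and tests were chosen with earlier results of these data known. Proteins were translated from GENCODE release 29. No unassigned sample column was left.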

Additional observations from a re-analysis of the deposited data

How the results depend on the processing

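Of 47 calls of named genes, 34 were kept in all 23 other settings, 13 were lost in at least 1 and none turned direction. Other settings also called named genes that the main fit did not, most often ZNF587 in M-BSG (8 settings) and ZNF622 in M-BSG (6). Leaving out 1 library at a time, 1 to 3 ZNF genes rose and 15 to 33 fell in M-BSG-Hot. Of all genes, 0.657% to 1.94% rose and 1.82% to 4.17% fell there. In M-BSG 6 to 16 rose and 8 to 21 fell, against 1.88% to 4.05% and 1.58% to 3.66% of all genes. In BSG 5 to 10 rose and 20 to 51 fell, against 2.7% to 8.46% and 2.74% to 7.81% of all genes. Between M-BSG-Hot and M-BSG 1 to 5 were lower, against 0.14% to 0.784% of all genes, with ZNF medians of -0.121 to -0.0512. When M-BSG-Hot 3, M-BSG 1 and BSG 1 were all left out, 43 fell in M-BSG-Hot (17%, against 5.53% of all genes). In M-BSG 24 rose (9.49%, against 6.72%) and 29 fell (11.5%, against 5.93%). Further, 4 were higher in M-BSG against BSG (1.58%, against 0.468%) and 8 lower in M-BSG-Hot against M-BSG (3.16%, against 1.58%). With a mean cutoff of 10 CPM, which 176 ZNF genes met, 12 (6.82%), 9 (5.11%) and 21 (11.9%) fell in M-BSG-Hot, M-BSG and BSG, against 2.52%, 2.51% and 5.67% of all genes above it. DESeq2 called 40 lower in M-BSG-Hot (15.8%, against 4.96% of all genes) and 9 lower in M-BSG-Hot against M-BSG (3.56%, against 1.49%). Fits of the 2 groups alone called 38 (15%, against 4.83%) and 1 (0.395%, against 0.0475%). After removal of the trend with gene length, 6 (2.37%), 21 (8.3%) and 20 (7.91%) rose in M-BSG-Hot, M-BSG and BSG, against 5.1%, 5.55% and 9.24% of all genes. In M-BSG-Hot against M-BSG 7 were lower (2.77%, against 0.967%). Medians were -0.0259 in M-BSG-Hot and -0.0508 in BSG. Of the ZNF genes called in BSG, 34.5% were then higher, against 17.3% before, and of all genes called 58.8%, against 46.9%. With library totals the M-BSG-Hot median was -0.178. The causes were not tested.

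The same replicate numbers did not pair the libraries throughout. Deviations correlated above 0.1 in 4 of 18 same-number pairs (range -0.287 to 0.408), and 5 of 12 libraries matched best with their own number. Those 4 were NC 1 with BSG 1 (0.174) and M-BSG 1 (0.183), BSG 1 with M-BSG 1 (0.408), and BSG 2 with M-BSG 2 (0.215). Whether some libraries of the same number shared a batch was not tested. With the replicate number as a block, 3 rose (1.19%, against 1.32% of all genes) and 24 fell (9.49%, against 3.36%) in M-BSG-Hot. In M-BSG 14 rose (5.53%, against 3.1%) and 16 fell (6.32%, against 3.06%). In BSG 9 rose (3.56%, against 6.6%) and 46 fell (18.2%, against 7.03%). Block and length trend together, added after seeing the data, gave 7 (2.77%), 21 (8.3%) and 19 (7.51%) higher, against 5.71%, 5.71% and 10% of all genes. In M-BSG 21 were lower (8.3%, against 4%). Medians were -0.0268 in M-BSG-Hot, -0.0535 in BSG and -0.0299 in M-BSG-Hot against M-BSG, with 7 lower there (2.77%, against 1.03%). In M-BSG against BSG 1 was higher (0.395%, against 0.0325%). At 3 libraries a group, an exact permutation test of 1 gene cannot go below p = 0.1.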
